A study of Saccharomyces cerevisiae BY4741 with 2 samples.

Results

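The wild-type baseline of a strand-specific RNA sequencing study in the budding yeast Saccharomyces cerevisiae is described here, from every row of the sense-strand count table. The members are the 2 count columns of the wild type, of 4 in the table, with all 7134 feature rows. The wild type was BY4741, a laboratory strain of mating type a (MATa) that carries his3Δ1, leu2Δ0, met15Δ0 and ura3Δ0. It was grown at 30 °C in yeast extract and peptone with 2% glucose to mid-log phase. Total RNA, taken with hot acid phenol, went through RiboMinus depletion of ribosomal RNA 2 times, and the SOLiD kit for total RNA then gave stranded libraries. Both libraries belong to 1 deposited sample of 2, and nothing in the labels says whether they came from separate cultures. With 1 group there is no contrast and no test, so both library values are given throughout.

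Growing yeast cells ferment glucose to ethanol even in air, and genes for respiration and for other carbon sources are held low while glucose lasts. Fast growth also demands ribosomes, so ribosomal protein, translation and glycolytic genes make up much of the messenger RNA. An ancient duplication of the whole genome left many of these genes as pairs, called paralogs, whose copies can be used equally or very unequally.

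Wild type 1 held 10860000 counts and wild type 2 held 12586037, and levels are counts scaled to a total of 1000000 (CPM). A count of 0 allows up to 3 counts, which is 0.276 CPM in wild type 1 and 0.238 CPM in wild type 2, for counting error only. The strain's fully deleted marker genes were at or near 0. URA3, a pyrimidine synthesis gene, had 0 counts in both libraries, LEU2 had 0 and 1, and MET17, also known as MET15, had 8 and 1. HIS3, of which his3Δ1 removes only a part, had 94 and 101 counts, and a total per row does not show where in the gene they lie. LYS2, whose loss is not part of this genotype, had 2373 and 2809. Of the 4 markers of alpha cells, SAG1 was the highest with 34 and 27 counts, and the pheromone gene MF(ALPHA)1 had 0 in both. Of the a-cell markers, the pheromone receptor gene STE2 had 2505 and 1828 counts, the pheromone exporter gene STE6 had 3888 and 6194, and AGA2 had 19 and 10. None of the 6 meiotic markers passed 49 counts in a library.

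Messenger RNA of nuclear genes held 67.9% of counts in wild type 1 (exact 95% interval 67.9 to 68.0) and 70.1% in wild type 2 (70.1 to 70.2). The intervals cover counting error only, and the gap between the libraries was far wider than either. Small nucleolar RNAs (snoRNAs), which guide the modification and cutting of ribosomal RNA, held 20.7% and 19.2% from 76 rows. A class of 4 other structured RNAs held 5.31% and 4.61%, both mitochondrial ribosomal RNAs 2.66% and 2.49%, and spliceosomal small nuclear RNAs 1.82% and 2.11%. The 275 nuclear transfer RNA rows held 0.831% and 0.794%. Noncoding classes together took 31.8% and 29.6% of the counts from 425 rows.

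**Figure D1:**
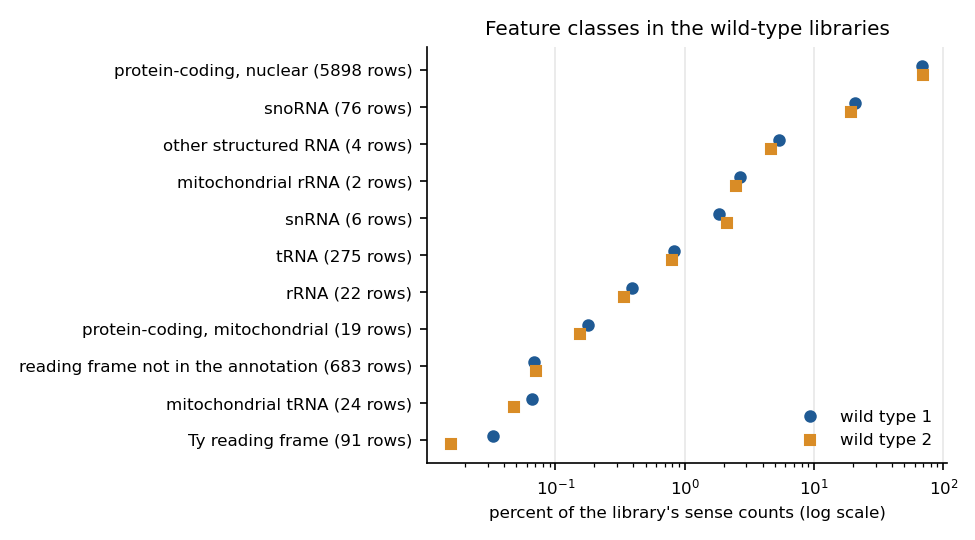
Percent of each wild-type library's sense counts by feature class, on a log scale, with wild type 1 as circles and wild type 2 as squares. Classes under 0.01% are left out. Nuclear protein-coding rows hold 67.9% and 70.1%, and Ty reading frames show the widest relative gap, at 0.0330% and 0.0155%.

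The single most abundant row differed between the libraries. SCR1, the RNA of the signal recognition particle that directs proteins to the endoplasmic reticulum, had 43652 CPM in wild type 1 and 36150 CPM in wild type 2. snR30, a snoRNA needed to process small-subunit ribosomal RNA, had 41246 and 36461 CPM, so SCR1 led in the first and snR30 in the second. By the mean of both libraries they were followed by snR11, the mitochondrial 21S ribosomal RNA, snR190, LSR1 (the U2 RNA of the spliceosome) and snR52. By the library mean, the first messenger RNA stood at rank 8: CDC19, pyruvate kinase of glycolysis, with 12864 and 15958 CPM. The first messenger RNA of wild type 1 alone was PGK1 (phosphoglycerate kinase), at rank 6 there and rank 13 in wild type 2, with 13549 and 10585 CPM. CDC19 held ranks 8 and 7, and ENO2 (enolase) ranks 10 and 8. The 10 highest rows held 20.9% and 20.2% of all counts, the 100 highest 55.0% and 53.5%, and the 1000 highest 85.3% and 85.0%. Of the 100 highest, 62 were nuclear protein-coding rows and 29 snoRNAs, and 95 rows were in the top 100 of both libraries.

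Per length the order changed, and a C/D box snoRNA came first. snR52, at chr5:431129-431220 on the minus strand, had 138424 CPM per kb in wild type 1 and 177066 in wild type 2. snR11, an H/ACA box snoRNA, had 90008 and 95035 CPM per kb, and snR190, a C/D box snoRNA, had 87818 and 70782. C/D box snoRNAs guide methylation and H/ACA box snoRNAs guide pseudouridine formation. The R64 reference sequences of these leading rows are printed as DNA, 5′ to 3′, because the boxes give the classes their names. Capitals mark the C box (TGATGA) and the D box (CTGA) in snR52 and snR190, and the ACA near the 3′ end in snR11.
snR52: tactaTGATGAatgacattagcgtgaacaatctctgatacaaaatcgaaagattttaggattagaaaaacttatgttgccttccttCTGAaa
snR190: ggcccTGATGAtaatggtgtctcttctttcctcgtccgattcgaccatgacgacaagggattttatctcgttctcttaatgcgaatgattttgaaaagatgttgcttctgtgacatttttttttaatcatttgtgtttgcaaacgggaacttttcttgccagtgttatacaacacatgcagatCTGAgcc
snR11: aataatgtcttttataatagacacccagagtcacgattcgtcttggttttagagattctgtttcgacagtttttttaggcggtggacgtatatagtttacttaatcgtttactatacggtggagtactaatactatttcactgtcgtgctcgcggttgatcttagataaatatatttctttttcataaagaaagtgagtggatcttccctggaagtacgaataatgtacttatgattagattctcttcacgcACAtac
Of 43 C/D box rows, 36 held TGATGA in their first 15 bases together with CTGA in their last 15, and of 31 H/ACA box rows, 17 held ACA in their last 8 bases. The 43 C/D box rows held 8.12% and 7.20% of all counts and the 31 H/ACA box rows 11.4% and 10.7%. Their medians were 7058 and 6696 CPM per kb for C/D box rows against 5340 and 4915 for H/ACA box rows. Both U3 rows, the RNAs that begin the processing of the ribosomal precursor, had a median of 12097 and 13111 CPM per kb.

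Other structured RNAs differed widely among themselves. RPR1, the RNA of RNase P, had 52206 and 69523 counts, NME1, the RNA of RNase MRP, had 46725 and 50963, and TLC1, the telomerase RNA, had 4082 and 4764. Among spliceosomal RNAs, LSR1 had 11489 and 13751 CPM per kb and snR19 (U1) had 7512 and 8036. snR14 (U4) had 1417 and 1382, the long form of snR7 (U5) 822 and 641, and snR6 (U6) 654 and 467. The U2 and U1 rows stood above those of U4, U5 and U6 in both libraries. The short form of snR7 overlaps the long form and was at 0. Whether reads of the shared part are missing from the U5 value was not tested. In the nuclear transfer RNA rows, glutamine rows took 51.2% and 46.5% of the class, and 1 row, tQ(CUG)M, alone had 41607 and 38130 counts. That anticodon has 1 row, while the glutamate anticodon UUC, for example, has 14. Proline rows took 10.5% and 15.01%, and the 4 cysteine rows 0.0244% and 0.0611%. Whether the sequence of these rows occurs at 1 place in the genome was not computed. The part of read assignment in these shares was not tested.

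Rows wholly covered by other rows were mostly at 0. Of 81 annotated rows wholly covered by the extents of other rows on the same strand, 80 were at 0 in both libraries. Of the 5978 rows with no same-strand overlap, 3.21% were. Those at 0 were 41 Ty reading frames, 16 rows of the large ribosomal RNA repeats, 10 mitochondrial intron reading frames, 8 snoRNAs, 4 nuclear protein-coding rows and the short form of snR7. The exception, LDO16, had 17 counts in each library. The 8 snoRNAs at 0 were snR18, snR24, snR38, snR39, snR44, snR54, snR59 and snR191, all of which lie inside the extent of another gene's row. snR24 lies within ASC1, whose own values are given below, and whether its reads were added to ASC1 or left out was not tested. Nuclear ribosomal RNA rows held 0.390% and 0.342% of counts after the depletion, with 19 of 22 rows at 0 in both libraries. All of these counts lay in rows of the 5S RNA, given below. The 16 rows of the large repeats were at 0 but are wholly covered by other rows. How much large ribosomal RNA the depletion left therefore cannot be read from this share.

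Sequence that occurs more than once in the genome also moved with low counts. Of the 64 nuclear protein-coding rows with under 1% unique windows of 50 bases, 44 were at 0 in both libraries, or 68.8%. Of the 5518 rows with 99% or more unique windows, 100 were at 0, or 1.81%. The 5S ribosomal RNA rows show how unevenly copies were credited. RDN5-1 had 39963 and 39540 counts, RDN5-6 had 2430 and 3485, RDN5-2 had 4 and 2, and the other 3 rows had 0 in both libraries. Their R64 sequences on chromosome XII (plus strand) are given for a row with counts and a row at 0, with capitals at the bases that differ in alignment.
RDN5-1: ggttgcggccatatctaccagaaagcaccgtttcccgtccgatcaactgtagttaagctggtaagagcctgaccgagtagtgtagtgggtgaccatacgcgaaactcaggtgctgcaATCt
RDN5-3: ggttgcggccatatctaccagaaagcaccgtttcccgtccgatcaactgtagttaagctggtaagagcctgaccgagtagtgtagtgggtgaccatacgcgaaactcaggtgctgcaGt
The annotated RDN5-1 (459676 to 459796) and RDN5-6 (489349 to 489469) are identical over 121 bases, and RDN5-3 (472465 to 472583) differs only near its 3′ end. None of the 6 rows holds a unique window of 35 bases, so the level of a single 5S row has no meaning apart from their sum.

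Most nuclear genes were detected. Of 5898 nuclear protein-coding rows, 5239 (88.8%) reached 1 CPM in both libraries, 3994 reached 10 CPM, 988 reached 100 CPM and 81 reached 1000 CPM. At 0 in both libraries were 189 of these rows. The median was 19.6 and 19.7 CPM per kb of coding length, the 90th percentile of the library mean 161 and the 99th 2412 CPM per kb. Whether rows include untranslated parts was not given in the sources used here, and levels per kb of coding length would then run high for very short reading frames.

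Ribosomal protein genes were the largest list. The 137 rows held 24.7% and 23.0% of nuclear protein-coding counts, all 137 lay above the median of all nuclear protein-coding rows in both libraries, and 124 lay in the top 10%. For comparison with this and each later list, 47.4% of all nuclear protein-coding rows lay above the median in both libraries. In the top 10% of both lay 9.22%. The highest messenger RNA per kb was RPL41B, a large-subunit protein gene of 78 coding bases on chromosome IV, with 40536 and 34968 CPM per kb, and its paralog RPL41A had 18557 and 17992. These coding sequences (R64, minus strand, chr4:221724-221801 for RPL41B and chr4:130407-130484 for RPL41A) differ at 1 base, printed in capitals, so the split between the copies is uncertain.
RPL41A: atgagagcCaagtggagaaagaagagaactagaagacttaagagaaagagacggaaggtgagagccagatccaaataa
RPL41B: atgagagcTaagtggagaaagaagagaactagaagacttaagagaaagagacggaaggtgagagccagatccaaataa
Counted from 1 at the first base of the start codon, the change is C9T from RPL41A to RPL41B.

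Apart from its stalk proteins, a ribosome holds 1 copy of each of its proteins, but their messenger RNA levels were not equal. RPS31, which encodes a ubiquitin fused to a small-subunit protein, had 19840 and 18035 CPM per kb, RPL28 18750 and 17205, RPS12 16130 and 15714, and RPL10 13908 and 15204. RPS15, another gene of the small subunit present in 1 copy, had 735 and 342 CPM per kb, and RPL5 had 717 and 571. All 19 proteins encoded by 1 gene consist of unique windows, yet the highest (RPS31) exceeded the lowest (RPS15) 35.2-fold in the library mean. Summed over copies, the 59 proteins with 2 genes had a median of 2594 and 2269 CPM per kb, against 4714 and 4416 for the 19 proteins with 1 gene. Restricted to the 21 pairs with 99% or more unique windows in both copies, that median was 3095 and 2815. The lowest sum belonged to RPL4, with 273 and 200 CPM per kb, whose copies have 27% unique windows at the fewest. ASC1, a small-subunit scaffold protein outside this list, had 11455 and 11757 CPM per kb.

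**Figure D2:**
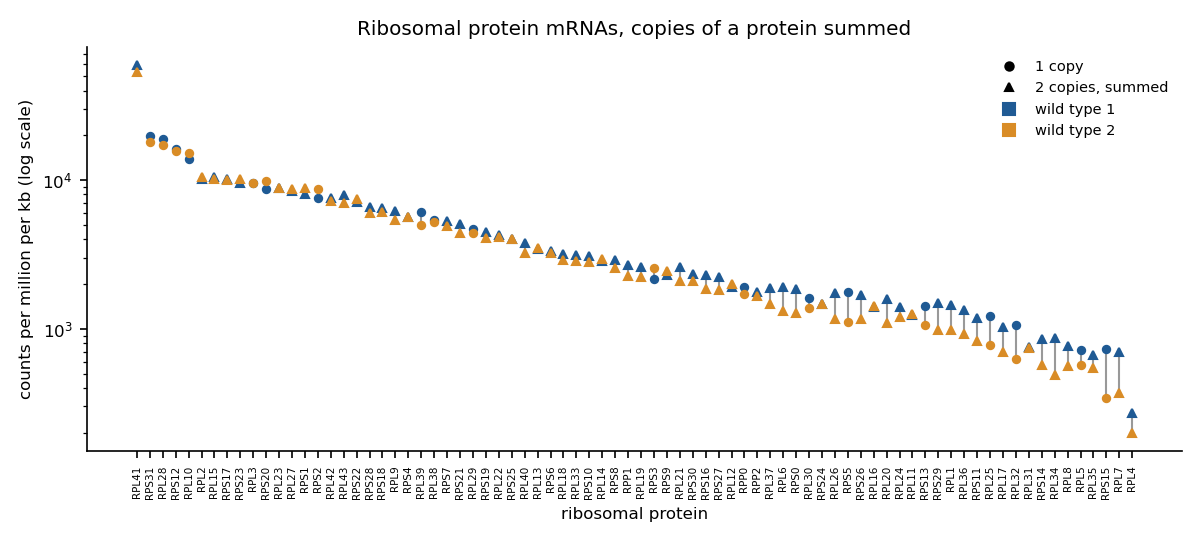
CPM per kb (log scale) of each ribosomal protein, with the copies of a protein summed, ordered by the library mean; circles are proteins with 1 gene and triangles those with 2, in blue for wild type 1 and orange for wild type 2. RPL41 stands alone at the top and RPS15, at 735 and 342, is the lowest of the proteins with 1 gene.

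Introns were common among ribosomal protein genes. The 271 nuclear protein-coding rows with an intron were 4.59% of rows and held 16.1% and 14.95% of nuclear protein-coding counts. Of these, 89 encode ribosomal proteins, with medians of 1200 and 1051 CPM per kb, while the other 182 had medians of 27.9 and 25.2. The 48 ribosomal protein rows without an intron had medians of 1354 and 1106 CPM per kb, above those with one in both libraries. Rows without an intron outside the ribosomal list had medians of 18.5 and 18.8 CPM per kb. Codon use differed in the most abundant genes: the effective number of codons, which falls as a gene uses fewer synonymous codons, had a median of 27.7 in the 86 rows with a value among the 100 highest messenger RNAs, against 51.6 over all 5591 rows with a value. Across 10 equal groups by level, the median lay between 49.5 and 52.7 in all but the highest group, where it was 40.8. The lowest number was that of TDH3 (glyceraldehyde phosphate dehydrogenase) at 24.1.

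Glycolysis and fermentation came next. Its 21 genes held 12.5% and 11.96% of nuclear protein-coding counts with a median of 1985 and 2285 CPM per kb, and 15 of them lay in the top 10%. In the order of the pathway, HXK2 (hexokinase) had 1113 and 1368 CPM per kb, PGI1 1985 and 2332, PFK1 396 and 418, and PFK2 228 and 177, the last pair being the subunits of phosphofructokinase. Below the splitting of the hexose, FBA1 (aldolase) had 4727 and 3858 and TPI1 4675 and 4958. TDH3 had 4213 and 2967, PGK1 10830 and 8461, GPM1 7476 and 8389, ENO2 9404 and 10814, and CDC19 8559 and 10617. Fermentation ended the route with PDC1 (pyruvate decarboxylase) at 4748 and 2990 and ADH1 (alcohol dehydrogenase) at 10142 and 9925. Phosphofructokinase subunits were thus the lowest of the main enzymes in both libraries, and the steps from PGK1 to pyruvate the highest together with ADH1.

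Genes of gluconeogenesis and of galactose use were low. All 15 genes of gluconeogenesis and the glyoxylate route together held 0.0167% and 0.0160% of nuclear protein-coding counts, and 0 of them lay above the median of all nuclear protein-coding rows in both libraries. FBP1 (fructose bisphosphatase) had 0 and 0.152 CPM per kb and PCK1 (phosphoenolpyruvate carboxykinase) 0.335 and 0.530, while MDH2 had 30.9 and 18.7. The structural galactose genes GAL1, GAL7 and GAL10 had between 0.151 and 2.26 CPM per kb, and GAL80, the repressor, had 22.3 and 21.9. Of 19 hexose transporters and sensors, some induced and others repressed by glucose, 3 lay above the median. HXT2 led with 102 and 95.7 CPM per kb, then HXT3 with 88.8 and 81.5 and HXT1 with 29.1 and 26.8. SNF3 and RGT2, the glucose sensors, had 6.52 and 7.39 and 5.58 and 7.42. HXT15 and HXT16 were at 0 in both libraries, and HXT6 and HXT7, which are 99.8% identical in coding sequence, had 1 and 8 and 17 and 22 counts. The part of read assignment in the zeros and low counts of this list was not tested.

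**Figure D3:**
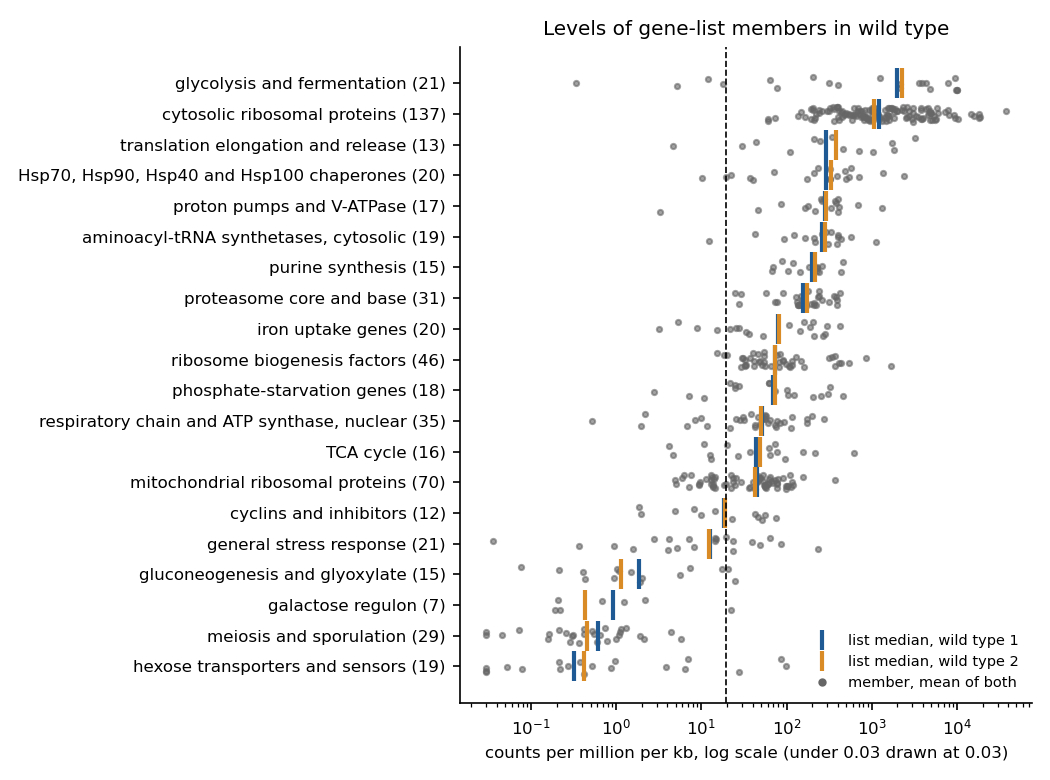
Levels of the members of 20 gene lists in CPM per kb of coding length on a log scale; grey points are genes (mean of both libraries), blue and orange bars the list medians in wild type 1 and 2, and the dashed line the median of all nuclear protein-coding rows. Glycolysis and ribosomal proteins lie highest, and the medians of the gluconeogenesis, galactose, meiosis and hexose transporter lists lie below 2 CPM per kb.

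Respiration stood in between, mostly above the median of all nuclear protein-coding rows. Of 35 respiratory chain and ATP synthase genes, 27 lay above it in both libraries, as did 10 of 16 citric acid cycle genes. The 35 nuclear-encoded subunits and partners of the respiratory chain and ATP synthase had medians of 51.0 and 50.4 CPM per kb and held 0.183% and 0.164% of nuclear protein-coding counts, from COX9 with 275 in both libraries to NDE2 with 0.618 and 0.437. In the citric acid cycle, ACO1 (aconitase) had 561 and 663 CPM per kb and MDH1 181 and 246, while SDH1 had 5.08 and 4.30 and CIT3 4.60 and 3.81. The mitochondrial genome's own messages ran from OLI1, an ATP synthase subunit, with 1100 and 1079 CPM per kb, through COX1 with 613 and 499, to ATP8 with 34.5 and 23.8 and VAR1, a mitochondrial ribosomal protein gene, with 25.1 and 25.95. Of 70 mitochondrial ribosomal protein genes, 47 lay above the median and 1, MNP1, in the top 10%. The shares of all nuclear protein-coding rows were 47.4% and 9.22%.

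Protein synthesis genes other than those of the ribosome were high with exceptions. Of 13 elongation and release factor genes, 12 lay above the median, led by YEF3, the fungal elongation factor 3, with 2803 and 3582 CPM per kb. TEF1 and TEF2, which encode elongation factor 1A, had 2047 and 1645 and 1930 and 1560 CPM per kb. EFT1 and EFT2, which encode elongation factor 2, had only 28.9 and 31.1 and 44.7 and 43.7. Both pairs are nearly identical in coding sequence, at 99.9% and 99.8%, and the part of read assignment in this contrast was not tested. Of 19 cytosolic aminoacyl-tRNA synthetases, 14 lay in the top 10%, from THS1 with 1107 and 1155 CPM per kb to FRS2 with 16.4 and 8.09. All 46 ribosome biogenesis factors were detected, 43 lay above the median, and NOP10, GAR1 and CBF5, which bind H/ACA box snoRNAs, were the 3 highest at 1679 and 1708, 737 and 969, and 496 and 579 CPM per kb. DBP2, the helicase gene deleted in the study's other strain, had 411 and 468.

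Other lists linked to growth also lay mostly above the median. PMA1, the plasma membrane proton pump, had 1264 and 1354 CPM per kb, and 12 of the 17 proton pump genes lay in the top 10%. HSC82, the constitutive Hsp90, had 2375 and 2447 CPM per kb, and HSP82, its inducible paralog, 527 and 568. Purine synthesis genes lay above the median in 15 of 15 cases and proteasome genes in 29 of 31. Branched-chain amino acid synthesis was led by ILV5 with 1997 and 2076 CPM per kb and ILV3 with 1179 and 1003. General stress genes lay lower: 6 of 21 were above the median, with HOR7 at 229 and 244 and HSP12 at 56.1 and 41.4, while CTT1 (cytosolic catalase) had 2.67 and 2.96. Meiosis and sporulation genes had medians of 0.608 and 0.453 CPM per kb, and 0 of 29 lay above the median.

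Genes for the uptake of iron and phosphate were not silent in rich medium. Of 20 iron uptake genes, 16 lay above the median and 6 in the top 10%: the ferroxidase gene FET3 had 382 and 456 CPM per kb, the reductase gene FRE1 305 and 289, and the siderophore transporter gene ENB1 241 and 324. Of 18 phosphate genes, 15 lay above the median. The polyphosphate synthesis gene VTC3 had 414 and 504 CPM per kb, the transporter gene PHO84 136 and 112, and the acid phosphatase gene PHO5 26.6 and 23.6. The histone genes showed an uneven pattern, with HHT1 (H3) at 1994 and 1924 and HTA2 (H2A) at 1713 and 1447, but HTB1 and HTB2 (H2B) at 83.0 and 63.4 and 66.0 and 47.8 CPM per kb.

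Within paralog families, single copies dominated in glycolysis. A family was taken as one-sided where 1 copy held 90% or more of the family's counts per kb in both libraries. By that rule 35 of 163 families with enough counts (21.5%) were one-sided, 121 were shared and 7 had a different major copy in each library. Among glycolysis and fermentation families, 6 of 8 were one-sided, against 5 of 59 ribosomal protein pairs. HXK2 held 99.5% and 99.6% against HXK1, CDC19 99.8% in both against PYK2, PDC1 99.7% in both against PDC5 and PDC6, and ADH1 99.8% in both against ADH2. GPM1 held 99.3% and 99.4%. ENO2 held 97.2% and 96.8% although ENO1 still had 3866 and 5956 counts. The shared families were TDH, in which TDH3 held 67.1% and 55.6%, TDH2 31.9% and 42.8% and TDH1 1.07% and 1.61%, and PFK26 with PFK27, in which PFK26 held 57.0% and 87.3%.

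**Figure D4:**
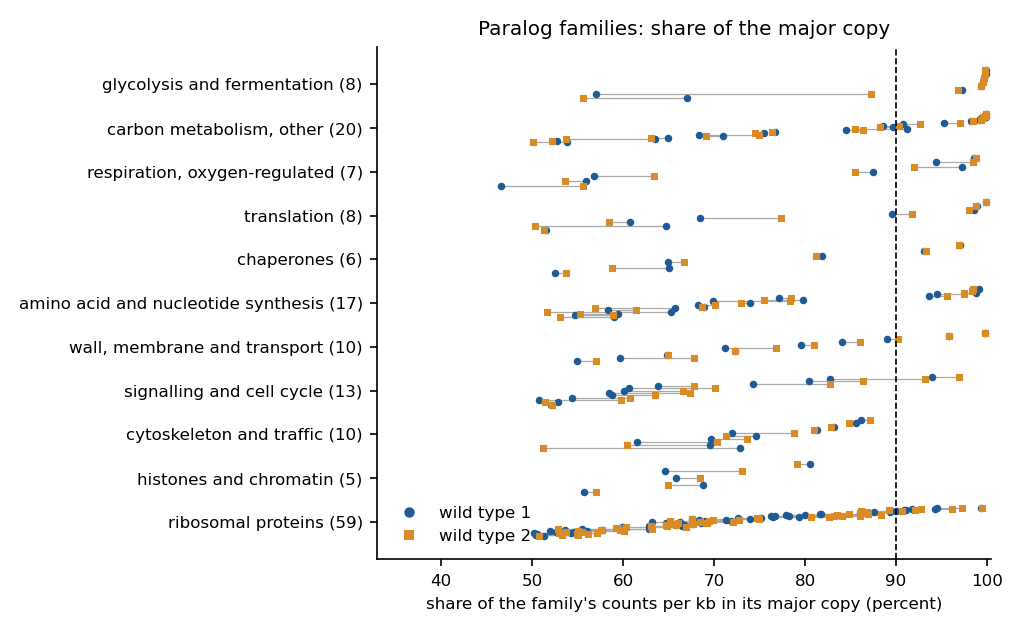
Share of a family's counts per kb held by its major copy in wild type 1 (circles) and wild type 2 (squares), joined by a line, for 163 paralog families in 11 groups; the dashed line is 90%. Past the line in both libraries lie 6 of 8 glycolysis and fermentation families and 5 of 59 ribosomal protein pairs.

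Other carbon families split by route. In the pentose phosphate pathway, SOL3, GND1, TKL1 and TAL1 each held 99.1% or more of their family in both libraries. ACS2, the acetyl-CoA synthetase used on glucose, held 99.4% and 99.5%, and IDP1, the mitochondrial isocitrate dehydrogenase, 95.3% and 97.02%. DAL7 held 98.3% and 98.5% against MLS1, which had 7 and 9 counts. CIT2, the peroxisomal citrate synthase, held 75.5% and 74.5% over the mitochondrial CIT1, and GPD2 held 70.9% and 69.1% over GPD1. The malate dehydrogenases were divided between the peroxisomal MDH3, with 52.8% and 52.2%, and the mitochondrial MDH1, with 40.4% and 44.4%.

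Families in which 1 copy is known as the low-oxygen form did not all favour the aerobic copy. CYC1 (cytochrome c) held 94.3% and 98.5% over CYC7, which is induced at low oxygen, and HYP2 held 87.5% and 85.5% over ANB1. In contrast, COX5B, the low-oxygen subunit of cytochrome oxidase, held 44.1% and 46.3% beside COX5A. AAC3, the low-oxygen ADP/ATP carrier, was the major copy of its family, with 580 and 756 counts (46.6% and 55.6%) against 556 and 441 for PET9 and 129 and 179 for AAC1. The culture's oxygen supply was not given in the sources used here.

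Ribosomal protein pairs were mostly shared. Their major copies had median shares of 67.7% and 68.4%, and 14 of the 59 pairs stayed below 60% in both libraries. RPL15A held 99.4% in both libraries with 69088 and 77656 counts against 422 and 445 for RPL15B. RPS7A held 94.5% and 97.3%, RPL22A 94.2% and 96.2%, RPP1A 91.8% and 92.7% and RPL27A 91.1% and 92.1%. The most even pairs were RPS6 with 51.3% and 50.8% and RPL33 with 50.4% and 53.2%. RPL17, RPL34, RPS23 and RPS28 changed their major copy between the libraries. Sequence likeness went with evenness across all families, of which 21.5% were one-sided. Of 28 families whose closest copies are 95% or more identical, 0 were one-sided. From 80% to under 95% identity 7 of 54 were, and under 80% 28 of 81. These groups differ in makeup, with 20 ribosomal pairs among the 28 and 3 among the 81. Outside ribosomal proteins, 0 of 8 were one-sided at 95% or more, 4 of 18 in between and 26 of 78 under 80%. Whether reads that fit both copies produced this was not tested.

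Upstream sequences were set beside these levels. Promoters were read as 250 bases before the start codon to 50 after it for 5897 nuclear protein-coding rows, on both strands. The RRPE motif AAAATTTT was in 38 of 46 ribosome biogenesis promoters (82.6%), against 9.16% of all, and the PAC motif GATGAG in 42 of 46 (91.3%), against 19.9%. The stress element AGGGG was in 15 of 21 general stress promoters (71.4%), against 22.0%. The stress and biogenesis lists came from textbook knowledge, so their membership may not be independent of these motifs. TATAAA was in 17 of 21 glycolysis promoters (81.0%) and in 34 of 137 ribosomal protein promoters (24.8%), against 44.4% of all. The core of the Gcr1 motif, CTTCC, was in 10 of 21 glycolysis promoters (47.6%), against 45.7% of all. The core of the Rap1 motif, CCNNACA, was in 4 of 21 glycolysis promoters (19.0%) and in 51 of 137 ribosomal protein promoters (37.2%), against 27.7% of all. Sequence further than 250 bases before the start codon was not read, so these shares do not show that a promoter lacks a motif. Of the 100 highest messenger RNAs, 42 held TATAAA, 18 the stress element, 9 RRPE and 30 the Rap1 core. The Gcr1 core was in 53 of them and PAC in 13, against 45.7% and 19.9% of all. Printed are the R64 windows of GAR1 (chr8:283249-283548, minus strand, capitals AAAATTTT and GATGAG) and TPS1, the trehalose phosphate synthase gene (chr2:490343-490642, minus strand, capitals AGGGG). GAR1 and TPS1 are the highest genes per kb of their lists that hold the named motifs. Capitals may also show a motif's reverse complement.
GAR1: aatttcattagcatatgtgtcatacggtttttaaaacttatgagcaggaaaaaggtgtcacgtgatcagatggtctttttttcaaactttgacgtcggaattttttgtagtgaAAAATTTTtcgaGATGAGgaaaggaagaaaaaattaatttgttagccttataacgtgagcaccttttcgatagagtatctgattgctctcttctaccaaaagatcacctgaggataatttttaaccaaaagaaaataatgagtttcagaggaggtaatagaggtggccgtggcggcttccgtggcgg
TPS1: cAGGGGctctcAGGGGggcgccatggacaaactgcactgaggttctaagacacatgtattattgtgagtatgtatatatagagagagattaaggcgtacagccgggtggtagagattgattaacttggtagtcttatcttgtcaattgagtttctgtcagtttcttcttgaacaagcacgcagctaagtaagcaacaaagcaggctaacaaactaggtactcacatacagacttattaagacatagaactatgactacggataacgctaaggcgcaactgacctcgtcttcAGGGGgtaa
A match describes letters in the window and is not a binding site.

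Genes near chromosome ends were low. Rows within 10 kb of an end had medians of 0.0571 and 0.151 CPM per kb and 45 of 122 were at 0, against medians of 21.0 and 21.4 and 114 of 5372 beyond 40 kb. Much of the sequence near ends is repeated, and among the 28 such rows with 99% or more unique windows the medians were 4.27 and 3.49 CPM per kb, with 3 at 0. Not every end gene was low: IRC7 had 274 and 293 CPM per kb, the low-affinity iron transporter gene FET4 231 and 259, and the siderophore transporter gene ARN2 129 and 191.

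The libraries were close but not interchangeable. Across all 7134 rows, log2(CPM + 1) correlated at 0.991 (Pearson) and 0.989 (Spearman), as a description across rows that share libraries and depths. Of 5085 rows with a mean count of 50 or more, 148 (2.91%) were 2-fold or more apart, and 141 of these were higher in wild type 1. Among 4814 nuclear protein-coding rows, 118 were higher in wild type 1 by that margin and 3 in wild type 2. Those 118 had a median of 14.5 CPM in wild type 1 and 6.16 in wild type 2, below the 37.3 and 39.0 of the rest. The largest gaps towards wild type 1 were those of TOS6 (91 and 17 counts), the transfer RNA row tL(CAA)N (83 and 19), RUF20 (111 and 26) and PCL7 (110 and 33). Towards wild type 2 they were those of the transfer RNA row tG(CCC)O (28 and 100), HTC1 (59 and 169), the transfer RNA row tV(CAC)H (253 and 713) and PKP1 (82 and 216). Leucine tRNA rows with anticodon CAA together had 2438 and 1322 counts, while proline rows with anticodon UGG had 6714 and 10618. Ty reading frames leaned one way: 6 of 12 with enough counts were 2-fold or more higher in wild type 1, and their share of all counts was 0.0330% and 0.0155%. Of 91 Ty rows, 41 are wholly and 41 partly covered by other rows. The part of read assignment in the Ty values was not tested.

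**Figure D5:**
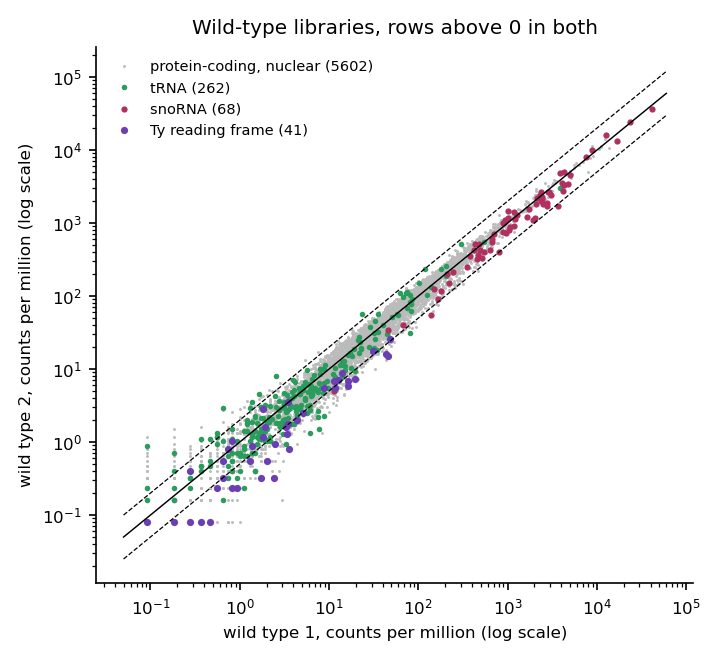
CPM of each row above 0 in both libraries, wild type 1 against wild type 2, on log scales; the solid line is equality and the dashed lines 2-fold either way. Of 68 snoRNA rows with a mean count of 50 or more, 3 lie 2-fold or more towards wild type 1, and Ty reading frames lie mostly on that side of equality.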

How the data were processed

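The deposited values are raw counts of sense-strand reads for each feature, as whole numbers, per the file headers. The build is R64 (sacCer3) and edgeR is named, per the submitters' processing notes; the aligner, the counting program and the treatment of reads that fit several places were not given in the sources used here. Deposited values of the comparison with the deletion strain were left out. Wild type 1 and 2 hold 10860000 and 12586037 counts. Rows were matched to the R64 annotation by locus tag (6053) or symbol (123), and 958 were classed by their own names. CPM are counts scaled to 1000000 sense counts per library, divided by coding length for levels per kb. TMM factors (edgeR 4.0.16, R 4.3.3) entered alternatives only. Uniqueness is the percent of a row's 35- or 50-base windows found at 1 place in the genome on either strand. Effective codon numbers used coding sequences of 300 bases or more. Exact (Clopper-Pearson) intervals used scipy 1.17.1, and alignments biopython 1.88. Ratios between libraries used 0.5 added counts. Families under 20 counts in a library got no call.

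Shares, calls and ratios were tested on simulated counts, which checks the arithmetic only. The simulation held no reads that fit several copies and no spread beyond counting error. The members, gene lists and families, taken from textbook knowledge, were chosen with earlier results of these data known. Genes were named by rank: the highest rows in all, per kb and per class, the highest 3 and lowest 2 of a list, carbon, translation and oxygen-regulated families, the most one-sided and most even ribosomal pairs, strain and mating markers, and the largest gaps between libraries. Some genes the rule gives are left out, and other genes were chosen after their values were seen.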

Additional observations from a re-analysis of the deposited data

How the results depend on the processing

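No paired analysis was possible because 1 group was described and no test was made. One alternative, leaving out families with 98% identical proteins, was not run, since it needs protein sequences not used here; coding-sequence identity replaced it after the data were seen. Without the 10 most abundant rows, nuclear protein-coding rows held 81.9% and snoRNAs 13.5% of counts; with classes from row names alone, protein-coding rows held 71.9%. The 10, 100 and 1000 highest rows held 15.8%, 44.6% and 80.6% among protein-coding rows alone, and 15.4%, 49.4% and 82.4% when ranked per kb. Ribosomal protein and glycolysis genes held 16.5% and 8.45% of all counts, 46.3% and 8.58% of the sum of counts per kb, and 16.4% and 9.80% among rows of 99% unique windows, a setting added after the data were seen. One-sided families rose from 35 to 59 at 80%. They stayed at 35 with raw counts, other minimums or per unique window, and were 29 among families of 99% unique windows. The setting per unique window divides the same counts by unique windows in place of length, and shares such as that of ENO2 were unchanged. It could not test how reads were assigned between copies. Rows past 2-fold between the libraries numbered 290 at a mean count of 10 or more (245 higher in wild type 1 and 45 in wild type 2), 40 at 200 or more (38 and 2) and 681 at 1.5-fold (513 and 168). Leaving out a library moved the number of one-sided families to 38 to 40, the protein-coding share to 67.9% to 70.1% and the ribosomal protein share to 23.0% to 24.7%. Depth limits rows near 0: their values cannot be told from absence below the limits that a count of 0 allows.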

Other observations

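Of 7 genes often used as reference genes in quantitative PCR, 0 differed 2-fold or more between the libraries, against 2.91% of all rows tested. With 7 genes, 0 cannot be told from that share. Their median log2 ratio of wild type 2 to wild type 1 was -0.312, against 0.0641 for nuclear protein-coding rows. ACT1 (actin) had 500 and 345 CPM per kb, PDA1 321 and 174, and IPP1 279 and 146, while TAF10 had 124 and 111 and ALG9 29.6 and 40.9. UBC6 and TFC1 had 40.6 and 32.7 and 9.54 and 11.1 CPM per kb.

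Sterol and lipid genes were mostly above the nuclear protein-coding median, in 20 of 23 ergosterol genes and 13 of 15 fatty acid and phospholipid genes. Of all nuclear protein-coding rows, 47.4% were. ERG10, the first enzyme of the sterol route, had 545 and 667 CPM per kb and OLE1, the fatty acid desaturase, 261 and 368, while INO1, which is repressed by inositol, had 2.36 and 1.79. Of 12 cell-cycle genes, 6 lay above the median, near the 47.4% of all nuclear protein-coding rows. CLB3 and CLB2, mitotic cyclins, had 43.2 and 60.6 and 45.8 and 46.9 CPM per kb, and the G1 cyclin gene CLN3 had 2.59 and 1.14.

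Median levels of nuclear protein-coding rows by chromosome ran from 12.55 and 12.01 CPM per kb on chromosome I, the smallest, and 14.3 and 14.9 on chromosome VI to 23.4 and 25.2 on chromosome II. Pseudogene rows were low, led by FLO8, which carries a stop codon in this reference strain, with 271 and 285 counts. Among noncoding RNAs of other kinds, SRG1, which lies upstream of SER3, had 362 and 390 counts.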
